A study of Mus musculus with 14 samples.

Results

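The ribosomal RNA (rRNA) processing genes examined here are the protein factors that cut, modify and fold the precursor of rRNA. They were taken from the Reactome set for rRNA processing in the gene set collection deposited with the counts, which holds 198 genes of the series' collection of 3065 sets. Ribosomal protein genes of the set (symbols beginning Rpl or Rps) and genes of the mitochondrial genome were left out, which left 116 genes. The count table held 114 of these among its 19525 genes. Exosc6 and Rpp25, the other two, were not analysed here. The rule itself uses no measured value.

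RNA was measured in 14 libraries from spheroids of 4T1, a mouse triple-negative mammary carcinoma line, grown for 5 days in a lung-like medium (LLM). All cells carried a lentiviral pLKO hairpin and were used as polyclonal, puromycin-selected populations. ASP shSCR (n = 4) received a non-targeting hairpin and 700 µM aspartate. NoASP shSCR (n = 3, numbered 2 to 4) carried the same hairpin without added aspartate. ASP shGRIN2D (n = 3) and ASP shDHPS (n = 4) received 700 µM aspartate and hairpins against Grin2d, a subunit of the NMDA glutamate receptor, and Dhps, the enzyme that carries out the first step of hypusination of the translation factor eIF5A. Each library was polyadenylated RNA from the cytosolic lysate that served as input for polysome profiling, so rRNA itself was not measured. The comparisons ask whether the RNA level of the processing factors differs with aspartate, with knockdown of the receptor subunit and with knockdown of the hypusination enzyme. The labels do not distinguish hairpins against the same target. An effect of a hairpin or of the transduced population thus cannot be told apart from an effect of its target.

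Most rRNA of the cytoplasmic ribosome is transcribed in the nucleolus by RNA polymerase I as 1 long precursor and is cut and modified while ribosomal proteins bind to it. Box C/D and box H/ACA small nucleolar ribonucleoproteins (snoRNPs) guide ribose methylation and pseudouridylation, the small subunit processome folds and cuts the small subunit part, and separate factors release and trim the large subunit part. Growing tumour cells make many ribosomes, and genes of this pathway are well known as targets of Myc, which binds the E-box CACGTG.

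By role, the 114 genes comprised 36 of the small subunit processome, 19 of large subunit processing, 14 of the RNA exosome and its cofactors, 10 of late small subunit maturation, 10 of mitochondrial rRNA and 9 rRNA-modifying enzymes. Smaller groups were box C/D snoRNP proteins (5), RNase MRP and RNase P subunits (5) and box H/ACA snoRNP proteins (4). The remaining 2 genes are in the counts over the list and are not described by role. Among genes with a role given here, Ncl, which encodes the nucleolar protein nucleolin, was at 137 CPM (the count of a gene scaled to the library total) per kilobase of its longest coding transcript. The lowest was Rpp40, a subunit of RNase MRP and RNase P, at 0.953 CPM per kilobase, and the median over the 114 genes was 20.4 CPM per kilobase.

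Promoters were searched for the E-box, which reads the same on both strands, from 250 bases before to 50 after each RefSeq start. A promoter was matched for 97 of the 114 genes, and 20 of these held CACGTG (20.6%), against 12.6% of 8090 genes whose mean over the libraries was 5 CPM or more (called expressed genes) and 8.09% of all 27025 genes with a promoter. In the small subunit processome 9 of 29 promoters held it, in late small subunit maturation 3 of 8 and in large subunit processing 4 of 18. It was in 1 of 4 promoters for RNase MRP and RNase P, 1 of 8 for the modifying enzymes and 1 of 10 for mitochondrial rRNA. The exosome had it in 1 of 11, and box C/D and box H/ACA proteins in 0 of 4 each. The windows of 5 of the 20 genes are shown with the E-box in capitals. Utp4, Imp4 and Pno1 recur in the results, and Tsr1 and Nop2 are further examples. Coordinates are of GRCm38.p6, an older build than the GRCm39 used for the counts.
Utp4, small subunit processome, chr8:106893643-106893672, + strand, 15 bases downstream of the start: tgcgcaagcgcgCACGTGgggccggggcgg
Imp4, small subunit processome, chr1:34439696-34439725, + strand, 121 bases upstream: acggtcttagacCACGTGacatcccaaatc
Pno1, late small subunit maturation, chr11:17211540-17211569, - strand, 37 bases downstream: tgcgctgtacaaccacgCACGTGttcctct
Tsr1, late small subunit maturation, chr11:74898092-74898121, + strand, 24 bases downstream: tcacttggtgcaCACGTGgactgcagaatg
Nop2, an rRNA methyltransferase, chr6:125131811-125131840, + strand, 60 bases upstream: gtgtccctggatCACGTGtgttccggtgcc

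Library depth ranged from 12731123 to 23231378 counts, with 4.53 to 6.23% of counts from mitochondrial genes. The rRNA processing genes took 0.855 to 1.09% of the counts of a library, and the lowest count of a gene in a library was 45. Dhps was at 5.46 to 9.08 CPM in the 4 ASP shDHPS libraries and 16.7 to 23.8 CPM in the others. Grin2d was at 2.06 to 3.13 CPM in ASP shGRIN2D, below the 3.23 to 4.16 CPM of ASP shSCR, though a library of ASP shDHPS was at 2.21 CPM. NoASP shSCR was at 3.05 to 6.95 CPM, so its replicate 2 lay within the ASP shGRIN2D range. All 7 carcinoma markers were present (3356 to 4589 CPM in sum), while the leukocyte markers of the table summed to at most 0.864 CPM, the endothelial ones to at most 0.550 CPM and the fibroblast ones to 22.9 to 41.7 CPM. Malat1 and Neat1, RNAs kept in the nucleus, were at 19.8 to 61.4 CPM and 86.3 to 309 CPM. The labels number the replicates, and p-values measure the spread between these spheroid preparations. In bulk RNA, fewer cells of a kind and less RNA per cell cannot be told apart.

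Replicate 2 of ASP shSCR and replicate 2 of NoASP shSCR stood apart before any group was compared. The level of the gene list in a library was taken as the median over the 114 genes of log2 CPM minus the mean of each gene over the 14 libraries. In ASP shSCR replicates 1 to 4 this level was -0.01, -0.33, 0.06 and -0.03, and in NoASP shSCR replicates 2 to 4 it was -0.23, 0.12 and -0.00. It was 0.01, 0.01 and 0.05 in ASP shGRIN2D, and 0.18, 0.06, 0.13 and 0.06 in ASP shDHPS. Both replicate 2 libraries thus lay below all others, and the 3 ASP shGRIN2D libraries lay within the range of the control libraries. The lowest ASP shDHPS level, 0.059, was barely above the highest ASP shSCR level, 0.056.

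**Figure D1:**
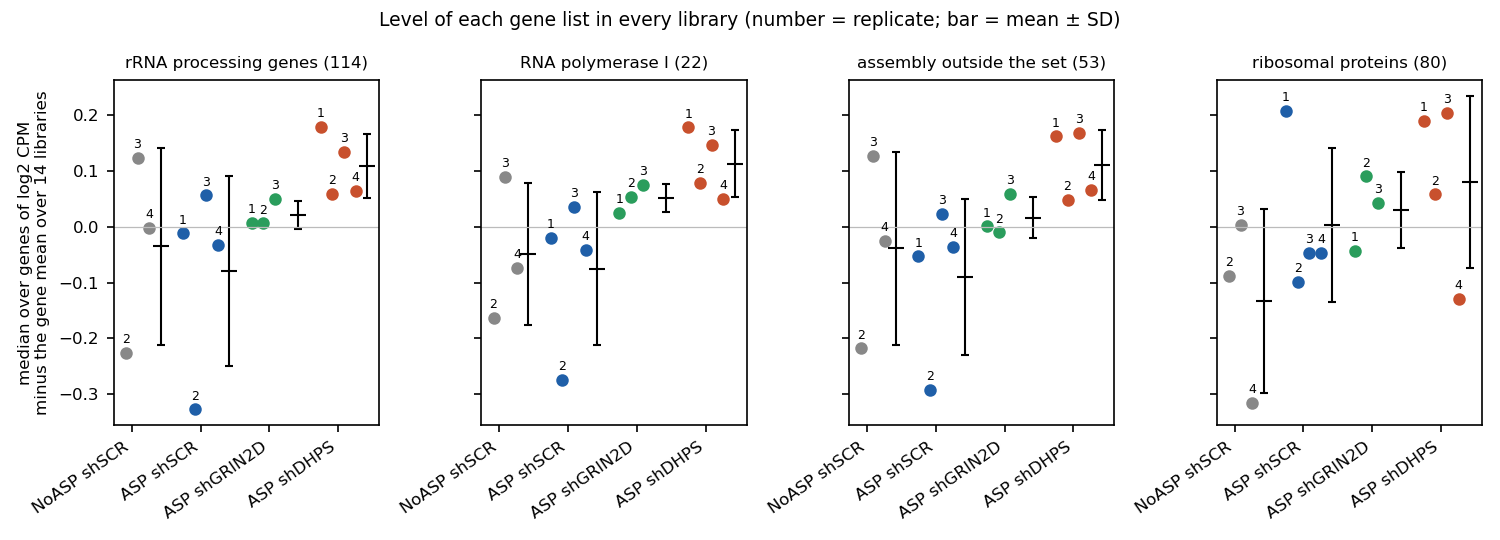
Level of 4 gene lists in each library: points are libraries with their replicate number, bars are the mean ± SD of a group, and the vertical axis is the median over the genes of log2 CPM minus the mean of each gene over 14 libraries. For the rRNA processing genes, replicate 2 of ASP shSCR (-0.33) and of NoASP shSCR (-0.23) lie lowest. The ASP shDHPS libraries (0.06 to 0.18) lie above those of ASP shSCR, with NoASP shSCR replicate 3 (0.12) among them.

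The low level of these libraries ran through the list. Replicate 2 was the lowest ASP shSCR library for 89 of 114 genes (78.1%, against 36.1% of expressed genes) and the lowest NoASP shSCR library for 91 (79.8%, against 35.2%). In ASP shSCR replicate 2 the H/ACA proteins were at -0.51 on this scale, the C/D proteins at -0.47 and the modifying enzymes at -0.44, while the exosome was at -0.15. RNA polymerase I genes (-0.27) and assembly factors outside the set (-0.29) were low in the same library, and its ribosomal proteins were at -0.10. Its mitochondrial share of counts, 4.53%, was the lowest of the series, and that of NoASP shSCR replicate 2, 4.71%, came next. What part these features of the libraries play in the differences between groups was not tested. Counts, medians and named values that move most with them are given with and without both libraries.

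**Figure D2:**
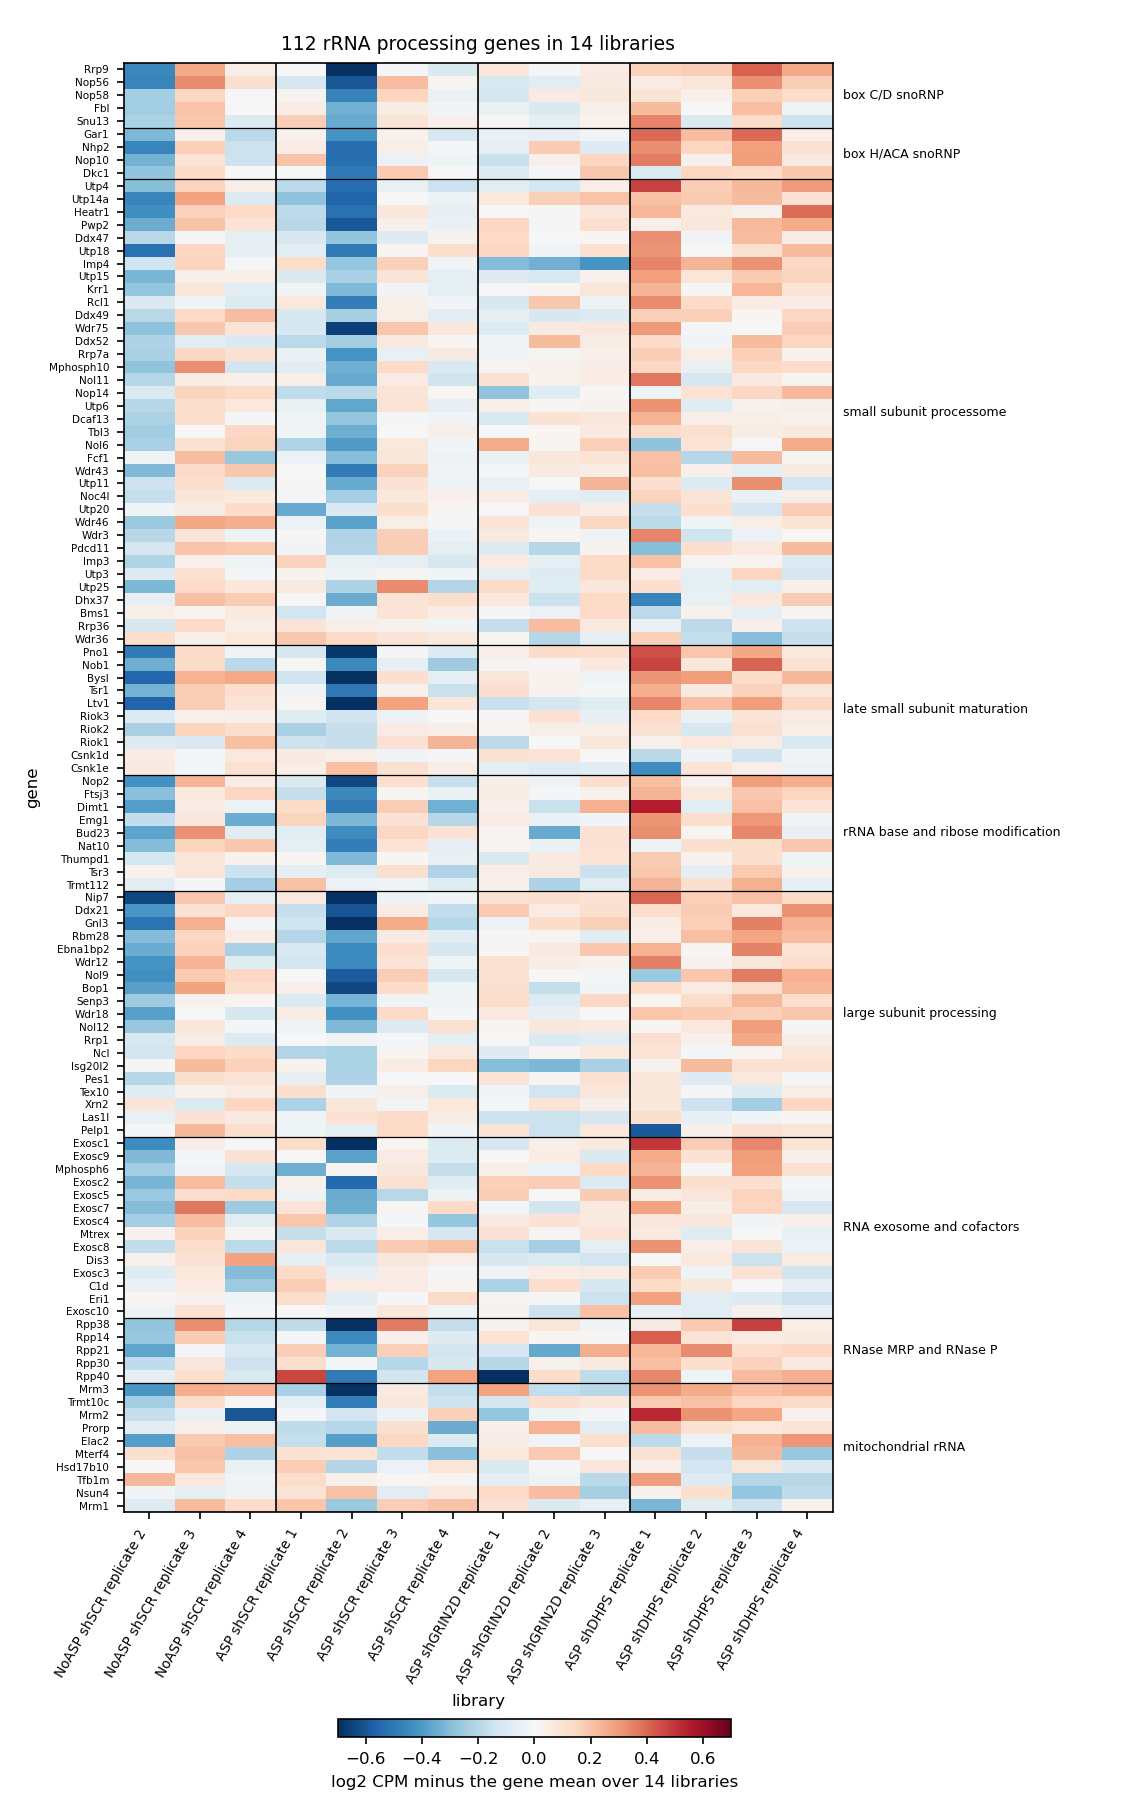
The 112 genes with a role given in the text (rows, by role) in the 14 libraries (columns, by group), coloured by log2 CPM minus the mean of the gene over all libraries. The columns of ASP shSCR replicate 2 and NoASP shSCR replicate 2 are mostly blue (low), and ASP shDHPS replicates 1 and 3 are mostly red (high).

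Among themselves the genes varied little. The highest library exceeded the lowest by 1.197 to 2.46 times, with a median of 1.56 times. Exosc10, the nuclear exosome exonuclease, was at 74.5 to 94.8 CPM over all 14 libraries. Rrp9, a C/D protein bound to U3 RNA, was at 24.9 CPM in ASP shSCR replicate 2 and at 61.2 CPM in ASP shDHPS replicate 3. The highest library was of ASP shDHPS for 79 of the 114 genes (replicate 1 for 44 and replicate 3 for 22), of NoASP shSCR for 20, of ASP shSCR for 8 and of ASP shGRIN2D for 7.

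With aspartate against without it in control spheroids, no rRNA processing gene passed an adjusted p of 0.05 by edgeR's quasi-likelihood test. No gene of the whole table did either (0% of 19525, also by DESeq2), and no processing gene had an unadjusted p under 0.05 (0.597% of expressed genes did). The log2 fold change was positive for 36 of 114 genes, with a median of -0.04 beside 0.00 for all genes tested. It ran from -0.29 for Mrm3 to 0.25 for Mrm2, enzymes that methylate mitochondrial rRNA. Mrm3 was at 7.21, 5.23, 8.82 and 7.54 CPM with aspartate and at 6.37, 10.08 and 10.01 CPM without, and the groups overlapped. For no gene did all libraries of a group lie above or below those of the other, where 0.968% and 0.939% of expressed genes did.

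By role, the medians in this comparison were -0.05 for the C/D proteins, -0.05 for the small subunit processome, -0.07 for large subunit processing, -0.01 for the exosome and 0.04 for the H/ACA proteins. Ribosomal proteins of the same set had a positive log2 fold change in 79 of 80, with a median of 0.14 and no call. Their level was 0.21, -0.10, -0.05 and -0.05 in ASP shSCR replicates 1 to 4. In NoASP shSCR replicates 2 to 4 it was -0.09, 0.00 and -0.32, so the groups overlapped. Within the pairs of replicates 2 and 3 the ribosomal protein level was lower with aspartate. RNA polymerase I (22 genes) and the assembly factors outside the set (53 genes) each had a median of -0.05, and the snoRNA host genes (18) one of -0.07, again with no call. Within each pair of the same number the level of the processing genes was lower with aspartate, with differences of -0.10 for replicate 2, -0.07 for replicate 3 and -0.03 for replicate 4. In the unpaired fit the median of the processing genes changed sign when ASP shSCR replicate 2 (0.03) or NoASP shSCR replicate 3 (0.03) was left out, which leaves the other library of the pair in place. It was -0.13 without NoASP shSCR replicate 2 and -0.06 without both replicate 2 libraries.

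Libraries of the same number deviated together in these control groups, so a fit with a replicate block over the 7 libraries was set beside the unpaired fit. With the block, 64 genes of the table passed an adjusted p of 0.05 (0.328%), none of them an rRNA processing gene. At an unadjusted p under 0.05, 1 processing gene was higher with aspartate (3.59% of expressed genes were) and 8 were lower (2.57% were). Rrp9 had the lowest p of these, with a log2 fold change of -0.28 and an adjusted p of 0.207 by edgeR. It was picked out after its value was seen, as was Fau (0.14, the higher gene), whose counts are uncertain because of near-identical processed copies in the genome. The median in the blocked fit was -0.07.

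In ASP shGRIN2D against ASP shSCR, no rRNA processing gene passed the threshold, where 1.16% of all genes did. The smallest adjusted p was 0.128 (edgeR). The log2 fold change was positive for 83 of 114 genes, with a median of 0.10 beside 0.01 for expressed genes, and the median was 0.02 without ASP shSCR replicate 2. At an unadjusted p under 0.05, 5 genes were higher (4.39%, against 5.34% of expressed genes) and 4 were lower (3.51%, against 8.09%), so neither share stood above the background. All ASP shGRIN2D libraries lay above all ASP shSCR libraries for 7 genes (6.14%, against 7.65%) and below them for 6 (5.26%, against 9.46%). The 6 were Csnk1e, Imp4, Isg20l2, Las1l, Tfb1m and Wdr36.

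The gene with the smallest adjusted p was Imp4, which encodes a protein of the U3 snoRNP in the small subunit processome. Its level was 53.8, 52.7 and 49.9 CPM in ASP shGRIN2D and 72.7, 55.0, 74.5 and 65.7 CPM in ASP shSCR. The lowest control library, replicate 2, was thus just above the highest knockdown library. This gave a log2 fold change of -0.36 (SE 0.11, adjusted p = 0.128). Without both replicate 2 libraries Imp4 fell by 0.45 on the log2 scale and passed the threshold (adjusted p = 0.0156), as it also did without ASP shSCR replicate 2 alone. Isg20l2, which encodes an exonuclease that trims large subunit rRNA, was at 47.3, 46.9 and 49.8 CPM against 59.3, 50.01, 60.3 and 64.6 CPM, with a log2 fold change of -0.29 (SE 0.10, adjusted p = 0.230).

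Among fixed core factors of each role in this comparison, 19 of 23 had a positive log2 fold change, with a median of 0.08 and none called. Fibrillarin (Fbl), the methyltransferase of C/D snoRNPs, was at 117, 113 and 125 CPM in ASP shGRIN2D and at 126, 96.4, 126 and 120.1 CPM in ASP shSCR. The ranges overlapped fully. Medians of the roles named above ran from 0.01 for RNase MRP and RNase P to 0.12 for large subunit processing. Without both replicate 2 control libraries 62 of the 114 genes were positive, the median turned negative for the C/D proteins (0.05 to -0.07), the H/ACA proteins (0.09 to -0.03) and the exosome (0.05 to -0.02), and it was 0.05 for large subunit processing and -0.00 for RNase MRP and RNase P. RNA polymerase I genes had a median of 0.12, assembly factors 0.10, snoRNA hosts 0.15 and ribosomal proteins 0.02, and no gene of these lists was called. Without those libraries the list medians were 0.05, 0.03, 0.08 and -0.01.

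In ASP shDHPS against ASP shSCR, 95 of the 114 processing genes had a positive log2 fold change, with a median of 0.18 beside 0.00 for all genes tested. Utp4 and Nob1 rose (1.75% of the list, against 4.22% of all genes called in either direction), and none fell. At an unadjusted p under 0.05, 35 genes were higher (30.7%, against 13.1% of expressed genes) and 1 was lower (0.877%, against 15.3%). All 4 knockdown libraries lay above all 4 control libraries for 22 genes (19.3%, against 7.88%) and below them for none (against 8.85%). In this fit without a replicate block, single genes thus passed the threshold no more often than other genes. Small positive differences were more frequent than in the background. A fit with a replicate block over all libraries called more of the processing genes, as given in the last section.

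Utp4 encodes a protein of the UtpA complex, which binds the start of the rRNA precursor in the small subunit processome. It was at 121, 98.5, 102 and 107 CPM in ASP shDHPS and at 77.1, 60.5, 84.5 and 79.1 CPM in ASP shSCR. Every knockdown library was above every control library, and also above the 71.0 to 97.5 CPM of NoASP shSCR and the 80.3 to 90.5 CPM of ASP shGRIN2D. The means were 107 ± 9.95 (SD, n = 4) and 75.3 ± 10.4 CPM (SD, n = 4). The difference was 0.51 on the log2 scale (SE 0.11, adjusted p = 0.00872 by edgeR), or 42.7% higher. Its promoter holds the E-box shown above.

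Nob1 encodes the endonuclease that makes the last cut of small subunit rRNA in the cytoplasm. Its level was 72.2, 54.8, 69.0 and 55.7 CPM in ASP shDHPS and 52.2, 37.98, 49.9 and 43.8 CPM in ASP shSCR. The knockdown and ASP shSCR did not overlap, and the gap between them was small. NoASP shSCR was at 41.0, 56.9 and 45.6 CPM, so its replicate 3 lay above knockdown replicates 2 and 4. ASP shGRIN2D was at 52.3 to 54.5 CPM. Nob1 had a log2 fold change of 0.45 (SE 0.12, adjusted p = 0.0321), or 36.8% higher, and the adjusted p was 0.0732 without both replicate 2 libraries. The call was also lost without ASP shSCR replicate 2 or 4, or without ASP shDHPS replicate 1 or 3, when each was left out alone (adjusted p up to 0.116).

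Just outside the threshold were Pno1 and Gar1. Pno1, the partner of Nob1 on the pre-small subunit, was at 77.9, 65.2, 68.8 and 60.004 CPM against 52.5, 35.7, 56.4 and 53.3 CPM, with a log2 fold change of 0.46 (SE 0.13, adjusted p = 0.0517). Gar1, a core protein of H/ACA snoRNPs, was at 67.7, 59.8, 67.8 and 53.3 CPM against 52.6, 38.7, 52.6 and 47.7 CPM, with a log2 fold change of 0.37 (SE 0.11, adjusted p = 0.0526). Without both replicate 2 libraries their values were 0.34 (adjusted p = 0.0608) and 0.29 (adjusted p = 0.136). For both genes, with all libraries, each knockdown library was above each control library.

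**Figure D3:**
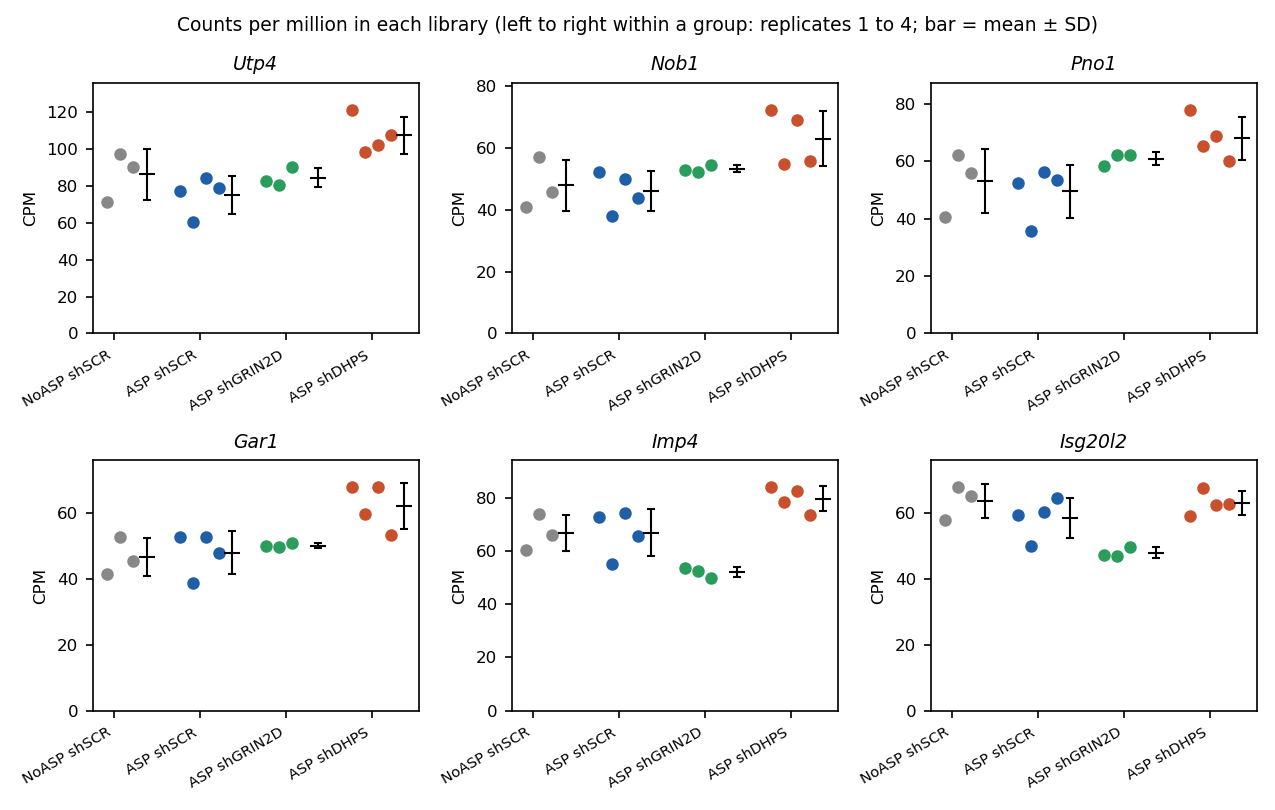
CPM of 6 genes in each library (points, coloured by group; replicates in number order from left to right) with the mean ± SD of each group. Utp4 and Nob1 have their highest group mean in ASP shDHPS without overlap with ASP shSCR, though Nob1 overlaps NoASP shSCR. Imp4 and Isg20l2 are lowest in ASP shGRIN2D (49.9 to 53.8 and 46.9 to 49.8 CPM).

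The positive differences with Dhps knockdown were spread over the cytoplasmic ribosome's pathway from its start. Among snoRNP proteins, all 5 of box C/D (median 0.17) and all 4 of box H/ACA (median 0.29) had positive log2 fold changes, none of them called. Fbl was at 142, 121, 141 and 119 CPM in ASP shDHPS, with a log2 fold change of 0.16, Nop56 had one of 0.25, Nop58 of 0.17 and Dkc1, the pseudouridine synthase, of 0.16. Nhp2, an H/ACA protein, was at 146, 129, 142 and 125 CPM in the knockdown and at 121, 80.2, 119.6 and 115 CPM in ASP shSCR, where replicate 2 was far below the rest. Rrp9 was at 51.5 to 61.2 CPM in the knockdown and at 46.1, 24.9, 45.8 and 42.9 CPM in ASP shSCR (log2 fold change 0.46, adjusted p = 0.0964). Without both replicate 2 libraries the values were 0.08 for Fbl, 0.12 for Nop56, 0.06 for Nop58, 0.04 for Dkc1, 0.20 for Nhp2 and 0.29 for Rrp9. Box C/D then had 4 of 5 positive, with Snu13 at -0.03 (named after its value was seen).

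In the small subunit processome 31 of 36 genes had a positive log2 fold change, with a median of 0.17 and Utp4 as the called gene. Heatr1, a large scaffold protein of UtpA, had a log2 fold change of 0.34, Wdr43 one of 0.13 and Utp20 one of 0.08, none passing. Without both replicate 2 libraries Heatr1 was at 0.25, Wdr43 at 0.02 and Utp20 at 0.08. Wdr36, also of the processome, was the gene with an unadjusted p under 0.05 in the lower direction: it was at 413, 328, 299 and 328 CPM against 419, 405, 391 and 385 CPM, with a log2 fold change of -0.23. Replicate 1 of the knockdown lay among the controls. In late small subunit maturation 8 of 10 were positive (median 0.21), and Bysl, which acts on the small subunit precursor, was at 55.7, 55.2, 49.3 and 52.7 CPM against 40.8, 24.2, 48.7 and 42.9 CPM, with a log2 fold change of 0.44 that was 0.28 without both replicate 2 libraries.

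All 9 modifying enzymes had a positive log2 fold change (median 0.22), with none called. Nat10, the rRNA cytidine acetyltransferase, had 0.21 and Emg1, a pseudouridine methyltransferase, 0.23 (0.11 and 0.16 without both replicate 2 libraries). In large subunit processing 15 of 19 were positive, with a median of 0.23. Within it, the PeBoW complex of Pes1, Bop1 and Wdr12 had log2 fold changes of 0.08, 0.24 and 0.27, which were 0.04, 0.10 and 0.18 without both replicate 2 libraries, while Las1l, the endonuclease that cuts the second internal spacer, had -0.05. Ncl was at 1106 to 1194 CPM in the knockdown and 959 to 1170 CPM in ASP shSCR, and Ddx21, a nucleolar helicase, was at 215, 223, 208 and 246 CPM against 176, 130.0, 206 and 175 CPM (log2 fold change 0.38, adjusted p = 0.0860, and 0.27 on the same scale without both replicate 2 libraries).

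The RNA exosome, which trims the end of the precursor and degrades its spacers, had the lowest median of the roles, 0.09, with 10 of 14 positive. Exosc10 had a log2 fold change of -0.05 and Dis3, the other catalytic subunit, one of 0.00. All 5 subunits of RNase MRP and RNase P were positive (median 0.22), among them Rpp30 with 0.18, and Rpp40, the lowest gene, with 0.13. Without both replicate 2 libraries Rpp30 was at 0.20 and Rpp40 at -0.02, and 8 of 14 exosome genes were positive. Of the mitochondrial rRNA genes 6 of 10 were positive (median 0.13), with 0.21 for Elac2, a nuclease of mitochondrial transcripts, -0.15 for the methyltransferase Nsun4 and -0.08 for Tfb1m. Without those libraries Elac2 was at 0.14 and Nsun4 at -0.10.

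**Figure D4:**
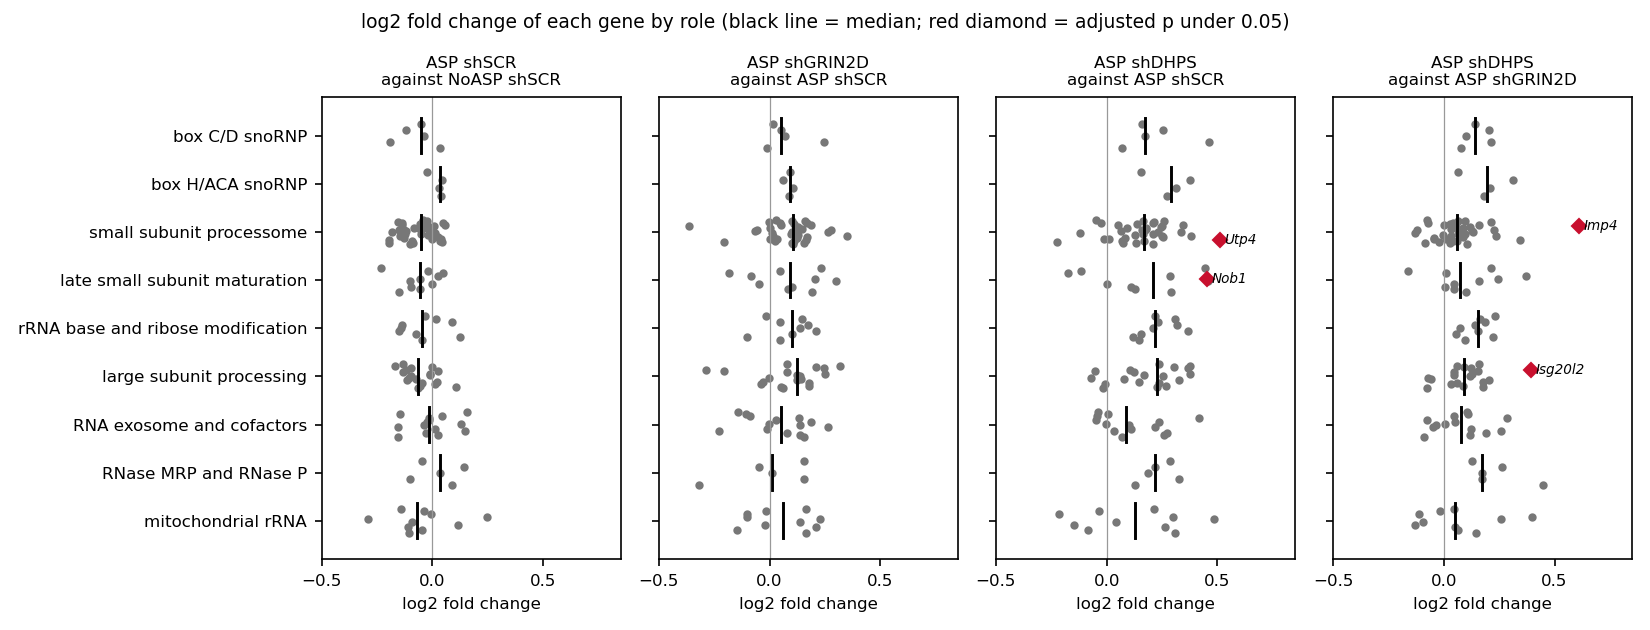
log2 fold change of each of 112 genes (points) by role in 4 comparisons, with the role median as a black line and genes with an adjusted p under 0.05 as red diamonds. In ASP shDHPS against ASP shSCR all role medians are above 0 (0.09 to 0.29), with Utp4 and Nob1 called, and in ASP shDHPS against ASP shGRIN2D Imp4 and Isg20l2 are called.

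Leaving out both replicate 2 control libraries made the log2 fold change smaller for 101 of 114 genes, and the median went from 0.18 to 0.11. The number of positive genes went from 95 to 90, and that of genes higher at an unadjusted p under 0.05 from 35 to 22 (19.3%, against 10.4% of expressed genes), all 22 being among the 35. Genes lower at that p went from 1 to 2 (1.75%, against 10.9%). Utp4 still rose (log2 fold change 0.43, adjusted p = 0.0110), and was then the single gene called (0.877%, against 2.9% of all genes). Without ASP shSCR replicate 2 alone, the libraries did not overlap for 22 genes above (against 9.43%) and 1 below (against 9.88%).

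**Figure D5:**
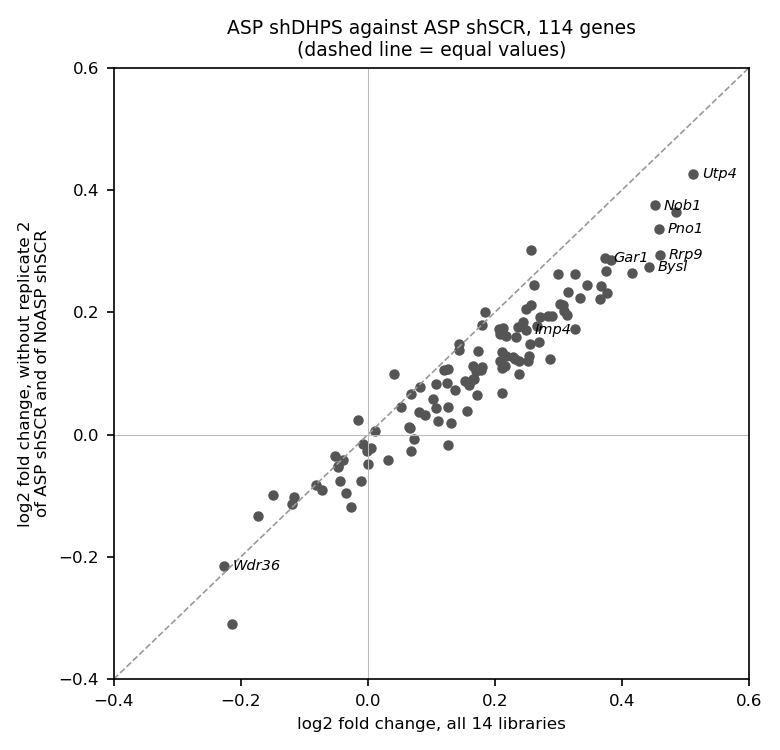
log2 fold change of the 114 genes in ASP shDHPS against ASP shSCR with all 14 libraries (horizontal) and without replicate 2 of ASP shSCR and of NoASP shSCR (vertical), with a dashed line of equal values. 101 points have the smaller value without these libraries, and Utp4 stays near 0.43.

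Role by role, the median without both libraries was 0.08 for the C/D proteins, 0.17 for the H/ACA proteins, 0.09 for the small subunit processome, 0.12 for late small subunit maturation, 0.14 for the modifying enzymes, 0.13 for large subunit processing and 0.04 for the exosome. It was 0.17 for RNase MRP and RNase P and 0.12 for the mitochondrial genes. No role median changed sign. The E-box did not separate the genes in this comparison: the median log2 fold change with all libraries was 0.19 for the 20 genes with it and 0.21 for the 77 without it.

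Neighbouring steps of ribosome synthesis had similar values in ASP shDHPS. Of the RNA polymerase I list 19 of 22 were positive (median 0.19, and 0.16 without both replicate 2 libraries), and Polr2f, a subunit shared by the RNA polymerases, rose (log2 fold change 0.38, SE 0.11, adjusted p = 0.0397, and 0.104 without those libraries). Of 53 assembly factors outside the set 44 were positive (median 0.18, then 0.12). Nufip1, an assembly factor of C/D snoRNPs, Nmd3, the export adaptor of the large subunit, and Eif6, which keeps the subunits apart, rose, with log2 fold changes of 0.51, 0.41 and 0.39. Nufip1 kept its call without those libraries (adjusted p = 0.0330), and the other two did not (0.0779 and 0.0636).

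Host genes of snoRNAs, whose introns carry the guides for rRNA modification, had the highest median of the lists, 0.32 over 18 genes (0.27 without both libraries). Snhg1 rose from 54.1 ± 7.35 (SD, n = 4) to 84.8 ± 12.2 CPM (SD, n = 4), with a log2 fold change of 0.65 (SE 0.13, adjusted p = 0.00594). Snhg8 and Snhg12 also rose (0.52 and 0.60), and Snhg12 lost its call without the replicate 2 libraries (adjusted p = 0.0696). Ribosomal proteins of the set were positive in 66 of 80, with a median of 0.06 and none called. Proliferation genes had a median of 0.01 over 15 genes, of which 8 were positive. At an unadjusted p under 0.05 by edgeR, 4 of them were higher and 2 lower (13.1% and 15.3% of expressed genes were). Mki67, a marker of cycling cells, fell by 0.51 on the log2 scale (adjusted p = 0.0231 by edgeR, and 0.0760 without the replicate 2 libraries).

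The hairpins were also compared directly. In ASP shDHPS against ASP shGRIN2D, Imp4 and Isg20l2 were higher with the Dhps hairpin (1.75% of the list, against 2.82% of all genes), and none was lower. The log2 fold change was positive for 92 of 114 genes, with a median of 0.09 beside 0.00 for expressed genes. At an unadjusted p under 0.05, 11 genes were higher (9.65%, against 9.84% of expressed genes) and none was lower (against 10.7%). All ASP shDHPS libraries lay above all ASP shGRIN2D libraries for 21 genes (18.4%, against 11.2%) and below them for 1, Csnk1d, a casein kinase acting late on the small subunit (0.877%, against 10.3%). No control library has a value in this contrast, though the fit of all 14 libraries takes its estimate of spread from them as well.

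Imp4 was at 84.0, 78.4, 82.7 and 73.5 CPM in ASP shDHPS, all far above its 49.9 to 53.8 CPM in ASP shGRIN2D. Between the hairpins it differed by 0.61 on the log2 scale (SE 0.11, adjusted p = 0.00180 by edgeR), or 52.9% higher. The means of ASP shSCR, 67.0 ± 8.82 CPM (SD, n = 4), and NoASP shSCR, 66.7 ± 6.88 CPM (SD, n = 3), lay between. Isg20l2 was at 59.3, 67.8, 62.4 and 62.8 CPM in ASP shDHPS, within the 57.8 to 67.9 CPM of the control libraries other than replicate 2 of ASP shSCR. Its log2 fold change against ASP shGRIN2D was 0.39 (SE 0.10, adjusted p = 0.0312). That call was lost when any ASP shGRIN2D library, or ASP shDHPS replicate 2 or 3, was left out (adjusted p up to 0.152).

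Both genes hold the 7 bases TCATGAA in the 3′ UTR, a sequence that an earlier analysis of these same libraries found among genes lower in ASP shGRIN2D, so that it is no independent evidence. Its relation to the sequence of the hairpin against Grin2d was not examined. The 7 bases lie in the 3′ UTR of a coding transcript (GENCODE M21, transcript strand) of 8 of the 114 processing genes (7.02%), of 13.3% of 9857 expressed genes with such a UTR and of 47.7% of 128 genes called lower in ASP shGRIN2D. The sites of both genes are shown with the 7 bases in capitals, on the + strand of GRCm38, with the distance from the stop codon in the transcript.
Imp4, site 1, chr1:34444924-34444952, 465 bases after the stop: gacttaatattTCATGAAtaaacgcctag
Imp4, site 2, chr1:34445509-34445537, 1050 bases after the stop: tctgcatggtgTCATGAAaacctaacgat
Imp4, site 3, chr1:34445633-34445661, 1174 bases after the stop: acaactgcagcTCATGAAtccaattctca
Isg20l2, chr3:87939771-87939799, 431 bases after the stop: ggaatacaaagTCATGAAccataactgtt
The other 6 with it were Exosc1, Ltv1, Mterf4, Nol9, Utp15 and Wdr43. The median log2 fold change in ASP shGRIN2D against ASP shSCR was 0.06 for the 8 genes with it and 0.10 for the rest. Of the 106 processing genes without it, none was called between the hairpins, which follows from both called genes holding it. With a replicate block over all 14 libraries 3 genes without it, Fau, Gar1 and Utp4, were called between the hairpins, where 7.52% of all genes were called.

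Among neighbouring lists in the direct comparison, the median was 0.07 for RNA polymerase I, 0.08 for the assembly factors, 0.11 for the snoRNA hosts and 0.06 for the ribosomal proteins. Znhit3, an assembly factor of C/D snoRNPs, was higher in ASP shDHPS (0.60, adjusted p = 0.0217 by edgeR). Ttf1, which ends transcription by RNA polymerase I, was lower (-0.41, adjusted p = 0.0418). Proliferation genes were positive in 14 of 15 with a median of 0.14, and Mcm3 and Ccnb1 were called (both 0.43). Against ASP shSCR the median of the proliferation genes was -0.17 in ASP shGRIN2D, with 13 of 15 negative, and 0.01 in ASP shDHPS. Mcm3 also fell in ASP shGRIN2D against ASP shSCR, by 0.41 (adjusted p = 0.0242), and its part in the difference between the hairpins was not tested.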

How the data were processed

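RNA was measured in 14 libraries prepared with a stranded poly-A protocol and grouped by their labels. Per the submitters' processing notes and the study's methods, the authors trimmed reads (Trim Galore 0.6.6, FastQC 0.11.9), mapped them to GRCm39 with STAR 2.6.1, estimated gene abundance with Salmon 1.4.0 and rounded it to integer counts. The authors dropped genes not expressed in 2 or more replicates of any condition. The deposited counts were used, while the authors' own fold changes and enrichment values were not. The rRNA processing genes and all lists were chosen with earlier results of these data known.

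edgeR 4.0.16 (R 4.3.3) fitted all 14 libraries with TMM factors and no term besides the group, with Benjamini-Hochberg adjustment over 19525 genes and a threshold of 0.05. log2 CPM used a prior count of 2. Expressed genes (10224) are those whose mean was 5 CPM or more. The code was tested on simulated counts. Of the genes, 535 have no symbol. Named genes were the called genes (up to 12 a direction), 23 fixed core factors, the 3 highest and 3 lowest by mean CPM, genes that change call or direction, and called genes of each list. Others named were chosen after their values were seen. Alternatives were DESeq2 1.42.0, other scalings, filters, replicate blocks and left-out libraries. Replicates of ASP shSCR and NoASP shSCR correlated by number (r = 0.514, 0.287 and 0.203 for the deviations of replicates 2, 3 and 4 from group means), so a fit with a replicate block was set beside the main fit, which had no block. Promoter sequences are RefSeq's (GRCm38.p6) and transcripts are GENCODE M21. Some items of the table are not reported here.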

Additional observations from a re-analysis of the deposited data

Results flagged for a closer look

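In groups of 4 libraries, a highest or lowest library was set apart from the nearest other by a large part of the whole range in 6 of 128 gene and group pairs tested. A rate of 1 in 20 by chance would hold for independent pairs. These genes were partly chosen by their values and share the same libraries, so the count cannot be set against that rate. Replicate 2 of ASP shSCR was the low library for Nhp2 (gap over range 0.85), Rrp9 (0.848) and Nip7 (0.835). Replicate 1 of ASP shSCR was the high library for Trmt112 (0.832). In ASP shDHPS, Rpp14 was set apart by a high replicate 1 (0.901) and Ddx49 by a low replicate 3 (0.853).

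Imp4 and Isg20l2 differed between the knockdowns in the direct test of ASP shDHPS against ASP shGRIN2D, with log2 fold changes of 0.612 and 0.394.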

How the results depend on the processing

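No setting called a processing gene in ASP shSCR against NoASP shSCR. Against ASP shSCR, DESeq2 called 1 gene (lower) in ASP shGRIN2D (2.26% of all genes called) and 7 (higher) in ASP shDHPS (7.06%). The replicate block over all 14 libraries called 3 genes in ASP shGRIN2D (3.13% of all genes). It called 26 of the 114 in ASP shDHPS, Wdr36 among them as lower, a larger share than the 11% of all genes called. Between the hairpins it called 5 of the 114, where 7.52% of all genes were called. By replicate number, deviations in ASP shGRIN2D correlated with those in ASP shSCR by r from -0.12 to 0.04. For ASP shDHPS r was 0.258, 0.195, 0.201 and 0.04, beside 0.514, 0.287 and 0.203 between the control groups. Whether the knockdowns pair with the controls by number was not tested. Without both shSCR replicate 2 libraries 1 gene was called in ASP shGRIN2D (Imp4) and 1 in ASP shDHPS (Utp4). Leaving out 1 library at a time gave 0 to 1 calls in ASP shGRIN2D, 1 to 6 in ASP shDHPS (6 without ASP shSCR replicate 3, 4 without ASP shDHPS replicate 4, and 1 without ASP shSCR replicate 2, ASP shSCR replicate 4 or ASP shDHPS replicate 3) and 1 to 2 between the hairpins. Without genes holding TCATGAA, 0 were called between the hairpins in the fit with no block, since both called genes hold it.

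Utp4 passed the threshold in all 16 alternatives (adjusted p 4.53e-05 to 0.0316) and Nob1 in 11 of 16 (up to 0.116). Imp4 between the hairpins passed in all 14 (4.57e-06 to 0.0180), and Isg20l2 in 9 of 14 (0.00370 to 0.152). Dis3 in ASP shDHPS turned negative with library-size scaling (-0.0073) and without both replicate 2 libraries (-0.0218), and with single libraries left out it ran from -0.0266 to 0.0506. That way Utp20 ran from -0.0017 to 0.1502 and Rpp40 from -0.0218 to 0.2987, and Rpp40 was -0.0171 without both replicate 2 libraries. The causes were not tested. At 3 to 4 libraries a group, differences near 0.2 on the log2 scale were mostly not detectable gene by gene.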
